A study of Mus musculus with 8 samples.

Results

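Ushbp1, Smoc1, Aim2, Ephx2 and Dnajc5g are 5 autosomal genes whose RNA levels set a DHX35-dTAG line of mouse embryonic stem cells apart from a GPATCH1-dTAG line. They were chosen because earlier results on these same libraries had shown them to differ between the lines, and they are 5 of the 55291 gene symbols counted. Their line difference is therefore given as a description, with no test, and tests were kept for the effect of dTAG-13, which did not enter the choice. All 5 were listed in all 8 libraries. Ushbp1, Smoc1 and Dnajc5g were higher in DHX35-dTAG cells, while Aim2 and Ephx2 were higher in GPATCH1-dTAG cells.

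DHX35 is an RNA helicase and GPATCH1 a G-patch protein that partners it in the quality control of splicing. In each line, one of these proteins carries the FKBP12 F36V degron, inserted into its own gene, so that adding dTAG-13 brings the protein to the cell's degradation machinery. The groups were DHX35-dTAG cells in the solvent DMSO, DHX35-dTAG cells in 200 nM dTAG-13, GPATCH1-dTAG cells in DMSO and GPATCH1-dTAG cells in 200 nM dTAG-13, each treated for 4 h and each with 2 libraries. All 8 libraries thus came from cells with a degron, and no untagged line was among them. The cells are labelled E14, although their growth protocol refers to R1 cells, cultured in serum with LIF, PD0325901 and CHIR99021. The lines were picked as single colonies after editing, and the labels do not name the clones, so a difference between the edited proteins cannot be told apart from a difference between clones or parental cells. Nor do the labels say whether replicates were separate cultures, so the p-values measure only the spread between these libraries. The ES cell label held in the data, since all 10 pluripotency markers that were searched, Pou5f1 and Nanog among them, were detected, with a summed level of 5996 to 6370 CPM in DHX35-dTAG cells and 5780 to 5926 in GPATCH1-dTAG cells. CPM here is the count scaled to a common library size with TMM, a method that corrects for differences in RNA composition.

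Total counts ranged from 12014203 to 14994173 per library, and a floor of 3 counts was worth between 0.186 and 0.265 CPM. The 2 genes with the highest counts took between 1.27% and 20.9% of a library. One library of DHX35-dTAG cells, replicate 1 in DMSO, differed from the rest, with a mean correlation of 0.976 with the 7 other libraries over all genes tested, against 0.988 to 0.990 for the others. Without it, the line differences in DMSO were -3.84 for Ushbp1, -2.19 for Smoc1, 1.40 for Aim2 and 0.91 for Ephx2 on the log2 scale. Where replicate 2 of that group was left out below, this library stood alone in it. The targeted genes were read first as a check of the labels. Gpatch1 mRNA lay between 6.90 and 7.31 CPM in the GPATCH1-dTAG line and between 23.2 and 25.6 CPM in the DHX35-dTAG line. Dhx35 mRNA lay between 72.3 and 84.8 CPM in its own tagged line and between 58.1 and 64.9 CPM in the other. The lines thus differed in Gpatch1 mRNA before any dTAG-13. In DMSO, the log2 difference, GPATCH1-dTAG minus DHX35-dTAG, was -1.78 (standard error 0.12, adjusted p = 0.00064 by edgeR) for Gpatch1. For Dhx35 it was -0.39 (standard error 0.09, adjusted p = 0.29 by edgeR). dTAG-13 acts on the protein, and neither mRNA passed the test for an effect of it.

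The 5 genes have little in common in what is known of them. Ushbp1 encodes a protein that binds harmonin, a scaffold protein affected in Usher syndrome, in which hearing and sight are lost. Smoc1 encodes a secreted calcium-binding protein of the SPARC family, found in basement membranes and known to modulate BMP signalling. Aim2 encodes a sensor of DNA in the cytosol that assembles an inflammasome, the platform on which caspase-1 is activated. Ephx2 encodes soluble epoxide hydrolase, which turns fatty acid epoxides into diols. Dnajc5g encodes a J-domain protein of the cysteine string protein family, co-chaperones of Hsc70 known mostly from nerve terminals and testis.

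In GRCm38, the build of the authors' alignment, the 5 genes lay on 5 different chromosomes. Ushbp1 (ENSMUSG00000034911.8) runs from 71384272 to 71395802 on the minus strand of chromosome 8. Smoc1 (ENSMUSG00000021136.13) runs from 81026808 to 81186414 on the plus strand of chromosome 12. Aim2 (ENSMUSG00000037860.15) runs from 173350879 to 173466040 on the plus strand of chromosome 1. Ephx2 (ENSMUSG00000022040.8) runs from 66084374 to 66124500 on the minus strand of chromosome 14. Dnajc5g (ENSMUSG00000053856.7) runs from 31106285 to 31112526 on the plus strand of chromosome 5. All 5 are protein-coding in GENCODE M21, with exons that cover between 1635 bases (Dnajc5g) and 6461 bases (Ushbp1). Aim2 and Dnajc5g each overlap a gene on the opposite strand, Cadm3 and Slc30a3, without sharing an exon base with it, and the microRNA gene Mir3067 lies within an intron of Smoc1.

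Of the 5 genes, Aim2, Dnajc5g and Ushbp1 had a promoter in the RefSeq sequences of GRCm38.p6. They are shown because Dnajc5g and Ushbp1 were nearly silent in one line, and because the start of a neighbouring gene falls inside one of them. Each runs from 250 bases before the RefSeq start to 50 bases after it, 5′ to 3′ on the gene's own strand, at chr1:173420354-173420653 for Aim2 (plus), chr5:31108069-31108368 for Dnajc5g (plus) and chr8:71395752-71396051 for Ushbp1 (minus). Capitals mark matches to the motifs searched.
Aim2: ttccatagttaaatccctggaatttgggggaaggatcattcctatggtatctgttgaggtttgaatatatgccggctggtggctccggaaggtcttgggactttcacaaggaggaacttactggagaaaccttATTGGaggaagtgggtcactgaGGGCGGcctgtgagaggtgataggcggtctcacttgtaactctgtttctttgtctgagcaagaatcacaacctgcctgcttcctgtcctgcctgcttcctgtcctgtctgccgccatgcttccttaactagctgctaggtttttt
Dnajc5g: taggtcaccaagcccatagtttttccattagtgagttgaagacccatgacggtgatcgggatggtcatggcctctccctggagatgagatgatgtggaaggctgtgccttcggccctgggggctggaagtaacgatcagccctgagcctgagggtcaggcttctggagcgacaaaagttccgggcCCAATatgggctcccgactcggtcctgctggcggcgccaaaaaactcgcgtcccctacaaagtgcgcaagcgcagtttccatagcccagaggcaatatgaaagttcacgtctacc
Ushbp1: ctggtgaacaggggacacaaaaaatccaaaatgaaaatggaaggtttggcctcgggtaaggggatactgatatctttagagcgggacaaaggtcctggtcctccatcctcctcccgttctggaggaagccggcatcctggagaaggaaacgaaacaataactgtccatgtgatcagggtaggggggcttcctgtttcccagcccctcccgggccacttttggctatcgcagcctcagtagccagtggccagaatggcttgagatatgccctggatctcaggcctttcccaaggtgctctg

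The motifs searched, on both strands, were the TATA box (TATAAA), the CCAAT box (CCAAT), the GC box (GGGCGG) and the E box (CACGTG). The Aim2 window held a CCAAT box, read on the other strand, at positions -117 to -113 from the start and a GC box at positions -95 to -90. In the Dnajc5g window a CCAAT box lay at positions -65 to -61. None of these letters occurred in the Ushbp1 window. Of 32851 mouse promoters of the same length, 37.4% held the CCAAT box and 35.7% the GC box, against 13.6% for the TATA box and 7.15% for the E box. CpG dinucleotides, the sites of DNA methylation, numbered 15 in the Dnajc5g window, 7 in that of Ushbp1 and 5 in that of Aim2, beside a median of 7 over all promoters. Their GC contents were 56.3%, 54% and 49.3%, beside a median of 52.7%. A difference in methylation or factor binding at these starts was not measured here.

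Ushbp1, the harmonin-binding protein, was read at a low but steady level in DHX35-dTAG cells. Its raw counts were 53 and 60 in DMSO and 41 and 41 in dTAG-13. In GPATCH1-dTAG cells they were 5 and 2 in DMSO and 5 and 4 in dTAG-13. Every library of the first line thus held at least 41 counts and no library of the second held more than 5. Scaled to library size, these were 3.92 and 3.86 CPM in DMSO and 3.505 and 3.63 CPM in dTAG-13 for DHX35-dTAG cells. The corresponding values for GPATCH1-dTAG cells were 0.324 and 0.177 CPM, and then 0.310 and 0.288 CPM, near the floor of 3 counts. The fitted log2 difference, GPATCH1-dTAG minus DHX35-dTAG, was -3.85 (standard error 0.33) in DMSO and -3.53 (standard error 0.32) in dTAG-13. The summed counts gave a DHX35-dTAG level 14.9 times that of GPATCH1-dTAG cells in DMSO, with an exact 95% interval of 6.98 to 37.8. In dTAG-13, this ratio was 11.9, with an interval of 5.97 to 26.9. Both intervals cover counting error only. In bulk RNA, fewer cells with a transcript and less of it in every cell cannot be told apart.

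Smoc1, the secreted SPARC family protein, differed in the same direction at a higher level. Raw counts were 275 and 389 in DMSO and 278 and 234 in dTAG-13 for DHX35-dTAG cells, and 92 and 55, then 77 and 65, for GPATCH1-dTAG cells. In CPM, DHX35-dTAG cells had 20.3 and 25.003 in DMSO and 23.8 and 20.7 in dTAG-13. GPATCH1-dTAG cells had 5.95 and 4.86 CPM in DMSO and 4.77 and 4.68 in dTAG-13. The gene was thus reduced but still read in all 4 libraries of that line, unlike Ushbp1, which sat near the floor. The log2 difference for Smoc1 was -2.06 (standard error 0.16) in DMSO and -2.23 (standard error 0.17) in dTAG-13.

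Dnajc5g, the cysteine string protein family member, had the lowest counts of the 5 genes in GPATCH1-dTAG cells. DHX35-dTAG cells gave 15 and 21 counts in DMSO and 21 and 17 in dTAG-13, which correspond to 1.11, 1.35, 1.80 and 1.503 CPM. GPATCH1-dTAG cells gave 0 and 0 counts in DMSO and 1 and 1 in dTAG-13. Since 0 counts allow for up to 3, the DMSO level was at least 5.35-fold lower in GPATCH1-dTAG cells, taking a floor of 3 counts per library (0.230 CPM on average). In dTAG-13, the summed counts of 38 and 2 gave a ratio of 24.8, with an exact 95% interval of 6.41 to 212. This interval too covers counting error only, and the gene was chosen for this difference.

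Aim2, the cytosolic DNA sensor, differed in the opposite direction. Its raw counts were 113 and 146 in DMSO and 104 and 149 in dTAG-13 in DHX35-dTAG cells. GPATCH1-dTAG cells had 362 and 298 counts in DMSO and 336 and 347 in dTAG-13. In CPM, the DHX35-dTAG libraries held 8.35 and 9.38 in DMSO and 8.89 and 13.2 in dTAG-13, the last being the highest of that line. The GPATCH1-dTAG libraries held 23.4 and 26.3 CPM in DMSO and 20.8 and 24.99 CPM in dTAG-13. The log2 difference for Aim2 was 1.48 (standard error 0.19) in DMSO and 1.05 (standard error 0.19) in dTAG-13, which was 0.80 once replicate 1 of DHX35-dTAG cells in dTAG-13 was left out.

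Ephx2, soluble epoxide hydrolase, was 1.92-fold higher in GPATCH1-dTAG cells in DMSO and 1.98-fold higher in dTAG-13 by the fit. DHX35-dTAG cells had 156 and 185 counts in DMSO and 155 and 133 in dTAG-13, or 11.5, 11.9, 13.3 and 11.8 CPM. GPATCH1-dTAG cells had 321 and 276 counts in DMSO and 408 and 337 in dTAG-13, or 20.8, 24.4, 25.3 and 24.3 CPM. All libraries of one line again lay above all libraries of the other. The log2 difference for Ephx2 was 0.94 (standard error 0.13) in DMSO and 0.99 (standard error 0.13) in dTAG-13.

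**Figure D1:**
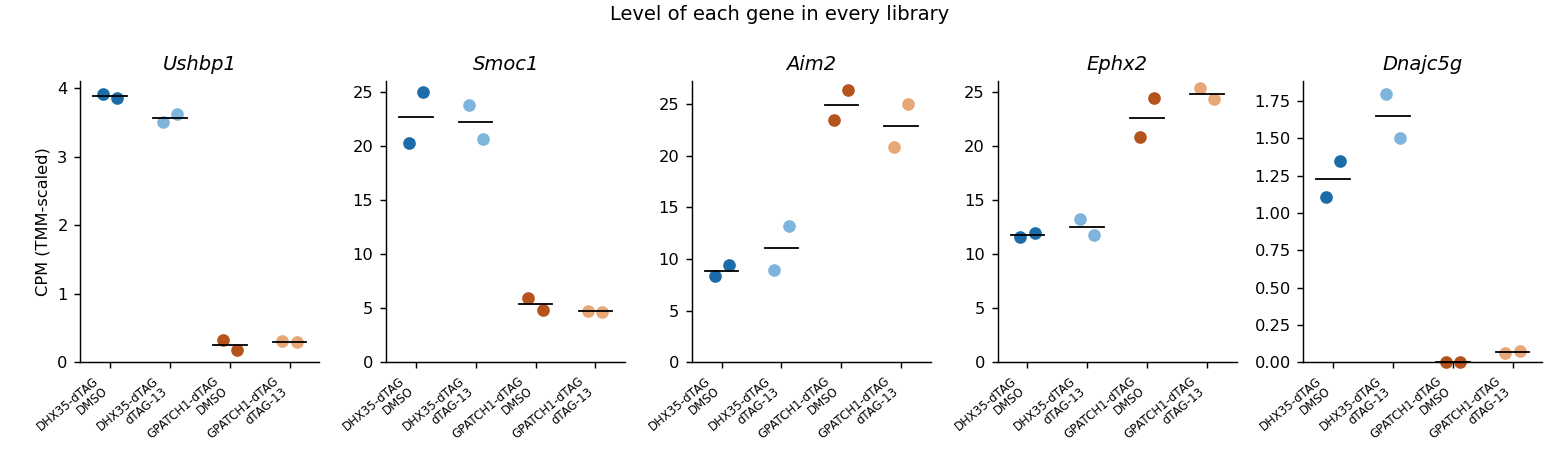
Level of each of the 5 genes in every library, in TMM-scaled CPM on a linear axis from 0, with 1 point per library and a bar at the mean of the 2 libraries of a group. Ushbp1, Smoc1 and Dnajc5g lie higher in the DHX35-dTAG libraries (blue) and Aim2 and Ephx2 in the GPATCH1-dTAG libraries (orange), with no overlap between the lines.

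The lines did not overlap over the 8 libraries for 5 of the 5 genes, which is what they were chosen for. Of the 16371 genes that passed the expression filter and were tested, 11.6% also had lines that did not overlap, and 0.0916% differed between the lines at an adjusted p under 0.05 in DMSO and 0.0916% in dTAG-13. Both shares are of 15 genes, a number that rose to 5887 in DMSO without DHX35-dTAG replicate 2 in DMSO and to 660 in dTAG-13 without replicate 1 of the same group, and that fell to 4 in either treatment without one of the libraries compared. The gap between the lowest library of the higher line and the highest library of the lower line was 10.8-fold for Ushbp1, 3.41-fold for Smoc1, 1.58-fold for Aim2 and 1.57-fold for Ephx2. For Dnajc5g no such fold is given, since the highest library of the lower line held 1 count. Within DMSO alone, 43.1% of all genes had lines that did not overlap, and within dTAG-13 alone 45.7%, so with 2 libraries a group the separation of a single treatment says little by itself. All 5 genes passed the expression filter, yet Ushbp1 and Dnajc5g reached its limit of 0.753 CPM in 4 DHX35-dTAG libraries and 0 GPATCH1-dTAG libraries, so they could enter the test only through the line in which they were high.

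Levels can be compared between genes only per length of exon. In DHX35-dTAG cells, the order was Smoc1 with 6.42 ± 0.66 CPM per kilobase (SD, n = 4, both treatments), Ephx2 with 4.87 ± 0.31, Aim2 with 2.84 ± 0.63, Dnajc5g with 0.880 ± 0.176 and Ushbp1 with 0.577 ± 0.030. Smoc1 stood at the 60.2 percentile of the 15986 genes tested that had a length, and Ushbp1 at the 14.6 percentile. In GPATCH1-dTAG cells, the order was Ephx2 with 9.53 ± 0.80 CPM per kilobase, Aim2 with 6.83 ± 0.68, Smoc1 with 1.45 ± 0.17, Ushbp1 with 0.0425 ± 0.0103 and Dnajc5g with 0.0205 ± 0.0238. The SD ranges of the last pair overlapped, so Ushbp1 and Dnajc5g cannot be ranked there. In that line, Ephx2 stood at the 69.2 percentile and Aim2 at the 61.6 percentile. Smoc1 thus led the order in one line and followed Ephx2 and Aim2 in the other, although none of the 5 was among the most abundant transcripts of either line. The spread within a line, as the coefficient of variation over 4 libraries, was 5.19% for Ushbp1 and 22.0% for Aim2 in DHX35-dTAG cells, and 24.3% for Ushbp1 in GPATCH1-dTAG cells, on counts of 2 to 5.

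Whether degrading the tagged protein moved these genes was then tested within each line by edgeR (quasi-likelihood), adjusting p-values over all 16371 genes by Benjamini-Hochberg, and a gene was called where the adjusted p was under 0.05. Of the 5 genes, 0 passed in DHX35-dTAG cells, where 0% of all genes were called. In GPATCH1-dTAG cells, 0 of the 3 genes read above the filter limit in both lines, Smoc1, Aim2 and Ephx2, passed, and 0% of all genes were called. For the difference between the effects, 0 of these 3 passed and again 0% of all genes were called. Ushbp1 and Dnajc5g had 5 counts or fewer in every GPATCH1-dTAG library, too few to show an effect there, and are left out of these counts. At an unadjusted p under 0.05, the counts over all genes were 882 (5.39%), 486 (2.97%) and 640 (3.91%), with none of these 5 or 3 genes among them. DESeq2 called 1, 0 and 8 genes in the same comparisons. Over all genes, these counts of 0 rose to 4949, 51 and 3592 when replicate 2 of DHX35-dTAG cells in DMSO was left out and to 2, 51 and 9 without replicate 1, but none of the effects given below for the 5 genes passed in those fits.

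In DHX35-dTAG cells, Aim2 had a log2 effect of dTAG-13 of 0.31 (standard error 0.20, adjusted p = 0.72 by edgeR). Its group means there were 8.87 ± 0.73 CPM in DMSO and 11.0 ± 3.0 CPM in dTAG-13 (SD, n = 2). The effects on Ushbp1, Smoc1 and Ephx2 in these cells were -0.12 (standard error 0.22), -0.03 (standard error 0.15) and 0.09 (standard error 0.13). For Dnajc5g, the effect was 0.42 (standard error 0.32, adjusted p = 0.72 by edgeR), on counts of 15 to 21. In GPATCH1-dTAG cells, the effects were -0.21 (standard error 0.19) for Smoc1, -0.12 (standard error 0.17) for Aim2 and 0.14 (standard error 0.12) for Ephx2, each with an adjusted p of 1.00 by edgeR. The fitted value for Ushbp1 in GPATCH1-dTAG cells, 0.20 (standard error 0.51), is given without a test, since 2 to 5 counts per library were too few to show an effect. Dnajc5g is not given a fold in this line, since both of its arms were at or under 3 counts. The difference between the effects, GPATCH1-dTAG minus DHX35-dTAG, was -0.43 (standard error 0.26, adjusted p = 0.86 by edgeR) for Aim2. It was -0.18 (standard error 0.24) for Smoc1 and 0.04 (standard error 0.18) for Ephx2. For Ushbp1, the fitted 0.32 (standard error 0.56) rests on the same few counts and is likewise given without a test. Each effect given here was smaller than 2 standard errors. Without 1 library, the effect on Aim2 in DHX35-dTAG cells was from 0.0059 to 0.57, and the effects on Smoc1 in these cells and on Ushbp1 and Aim2 in GPATCH1-dTAG cells changed sign. The DMSO libraries are shared between these effects and the line difference in DMSO.

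**Figure D2:**
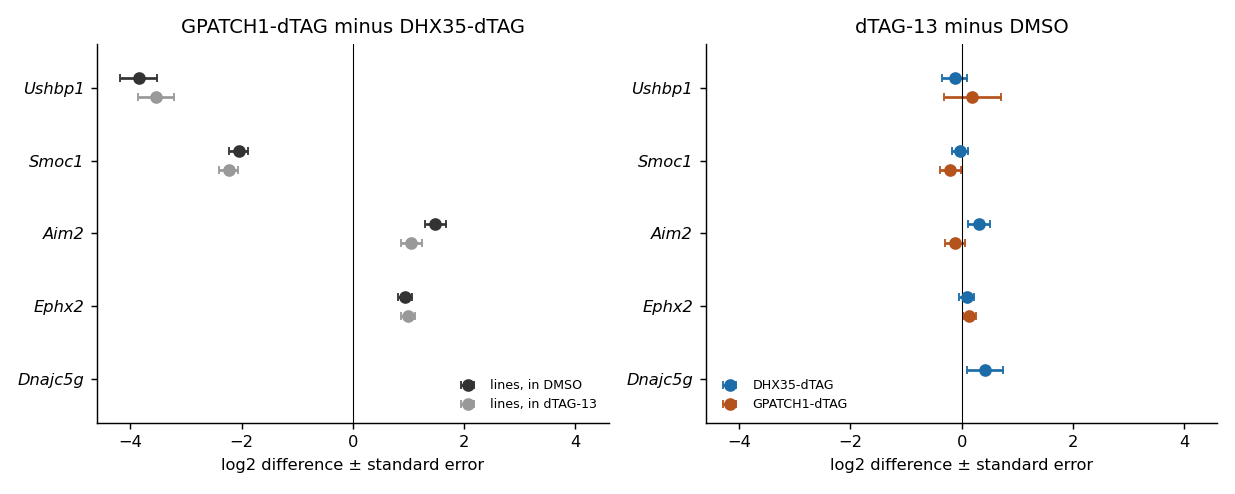
Fitted log2 differences with their standard errors for the 5 genes, between the lines in each treatment (left) and between dTAG-13 and DMSO in each line (right), on the same axis. Line differences run from -3.85 for Ushbp1 to 1.48 for Aim2, whereas the effects of dTAG-13 lie between -0.21 and 0.42, and Dnajc5g has no point where one arm held 3 counts or fewer.

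The genes around each of the 5 were examined to see whether a stretch of chromosome differed with them. For this, the line difference averaged over both treatments was used, in which 109 of the 16371 genes (0.666%) were called at an adjusted p under 0.05, 45 of them higher in GPATCH1-dTAG cells (0.275%) and 64 lower (0.391%). This number rose to 902 and 5149 without replicate 1 or replicate 2 of DHX35-dTAG cells in DMSO and fell to between 16 and 25 without any one of the other libraries. Of 100 tested genes within 500 kb of the 5, 1 was called, and that was Clu, near Ephx2. Around Ushbp1, 0 of 29 tested genes were called, with a median log2 difference of -0.12 and a range from -0.65 to 0.32. Around Smoc1, 0 of 19 were called, with a median of 0.01, and around Dnajc5g 0 of 40, with a median of -0.03. The median over all genes was -0.01. Aim2 lies among AIM2-like receptor genes and other genes barely read in these cells, so that of 35 annotated neighbours only 1, Cadm3, could be tested.

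Clu encodes clusterin, a secreted chaperone of extracellular proteins, and lies 102827 bases from Ephx2, on the opposite strand. Its level was between 2.66 and 3.63 CPM in the 4 DHX35-dTAG libraries and between 5.64 and 6.55 CPM in the 4 GPATCH1-dTAG libraries. The averaged log2 difference of Clu was 0.96 (standard error 0.13, adjusted p = 0.018 by edgeR), close in size to that of Ephx2. The call was lost, with an adjusted p between 0.0875 and 0.134 by edgeR, when any 1 of the 6 libraries other than those of DHX35-dTAG cells in DMSO was left out. Between Clu and Ephx2, and on its other side, the nearest annotated genes to Ephx2 were Adam2 and Chrna2, with 0 to 2 counts per library, too few to test. Gulo, also between Clu and Ephx2, was tested and had 0.32 (standard error 0.22, adjusted p = 0.51 by edgeR). Ptk2b, 28757 bases from Ephx2 on the other side, had -0.11 (standard error 0.10, adjusted p = 0.62 by edgeR). Around Ephx2, 1 of 11 tested genes was called, with a median log2 difference of 0.02.

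Slc30a3, which encodes a zinc transporter of synaptic vesicles, starts 82 bases from the RefSeq start of Dnajc5g and runs the other way. Its start at 31108237 lies inside the Dnajc5g window printed above, so these letters hold the starts of both genes. Slc30a3 had 5.91 and 6.94 CPM in DMSO and 5.98 and 5.22 in dTAG-13 in DHX35-dTAG cells. In GPATCH1-dTAG cells it had 4.66 and 3.89 CPM in DMSO and 3.10 and 3.39 in dTAG-13, so that the lines did not overlap. The averaged log2 difference was -0.69 (standard error 0.14), with an adjusted p of 0.073 by edgeR, and it was not called. The adjusted p fell to 0.0033 or 0.0034 by edgeR without replicate 1 or replicate 2 of DHX35-dTAG cells in DMSO. Slc30a3 and Dnajc5g share no exon bases, but the strand setting of the counting is not given in the sources used here, so how well their reads were kept apart is not known. Both were lower in the same line, Dnajc5g to near 0 and Slc30a3 to 3.76 ± 0.68 CPM from 6.01 ± 0.71 CPM (SD, n = 4).

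The other direct neighbours that could be tested did not pass in the edgeR fit described above. Nr2f6, which encodes an orphan nuclear receptor and lies 2312 bases from Ushbp1, had an averaged log2 line difference of -0.65 (standard error 0.18, adjusted p = 0.17 by edgeR). Nr2f6 passed by DESeq2 (adjusted p = 0.028), with the replicate block (0.043 by edgeR) and with no expression filter (1.9e-07 by edgeR). It also passed without either DMSO library of DHX35-dTAG cells, with -0.41 and -0.82 (adjusted p = 0.015 and 3.9e-06 by edgeR). Its lines did not overlap, with 27.2 to 51.1 CPM in DHX35-dTAG cells and 19.95 to 24.9 CPM in GPATCH1-dTAG cells. Babam1, which starts 1060 bases from the RefSeq start of Ushbp1 and runs the other way, had -0.07 (standard error 0.12). It was -0.21 without DHX35-dTAG replicate 2 in DMSO and 0.10 without replicate 1. Trim54, next to Dnajc5g, had -0.16 (standard error 0.13). Cadm3, a cell adhesion gene on the other strand of Aim2, had 8 to 16 counts per library and an averaged log2 line difference of 0.41 (standard error 0.24, adjusted p = 0.50 by edgeR). On either side of Smoc1, Slc10a1 and Slc8a3 had 0 to 4 counts.

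**Figure D3:**
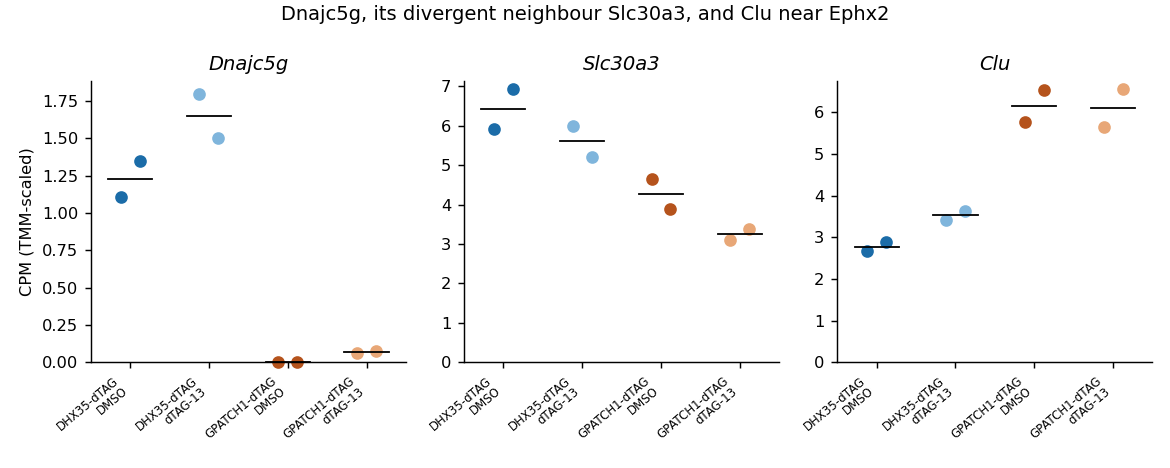
Levels of Dnajc5g, of Slc30a3 on the opposite strand and of Clu in every library, in TMM-scaled CPM from 0, with a bar at the mean of the 2 libraries of a group. Slc30a3 lies lower and Clu higher in all 4 GPATCH1-dTAG libraries.

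For each gene, a list of its family and pathway was then read for the averaged line difference, to see whether its partners differed as well. Over the 5 lists, 48 genes could be tested and 2 were called, against 0.666% of all genes, both on the list around Smoc1. No gene of any list was called for an effect of dTAG-13 in either line or for the difference between the effects.

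The list around Smoc1 held other SPARC family proteins and the BMP pathway. Of 17 tested genes of 25, 1 was higher and 1 lower in GPATCH1-dTAG cells, with a median log2 difference of -0.05. Fstl1, a secreted follistatin-like protein that binds BMPs, was higher, with 128 ± 4 CPM in DHX35-dTAG cells and 172 ± 2 CPM in GPATCH1-dTAG cells (SD, n = 4). This was an averaged log2 line difference of 0.43 (standard error 0.05, adjusted p = 0.012 by edgeR). Bmp4, the ligand itself, was lower, with 34.2 ± 3.6 CPM and 23.9 ± 2.1 CPM in the same order, or -0.52 (standard error 0.09, adjusted p = 0.048 by edgeR). Both calls were lost when any 1 of the 6 libraries other than the DHX35-dTAG libraries in DMSO was left out, with adjusted p-values by edgeR of 0.0954 to 0.137 for Fstl1 and 0.24 to 0.314 for Bmp4. Among the most abundant genes of the list, the inhibitory Smad gene Smad7 (-0.19), the founding family member Sparc (0.08) and the receptor gene Bmpr1a (0.09) did not pass the test. Smad7 was -0.27 without DHX35-dTAG replicate 2 in DMSO and -0.10 without replicate 1. Smoc2, the closest relative of Smoc1, had 2 to 8 counts per library.

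The list around Ushbp1 held harmonin and other Usher syndrome proteins. Of 11 genes, 5 could be tested and 0 were called, with a median of 0.06. Ush1c, which encodes harmonin itself, had 0 to 2 counts per library, so the known partner of the Ushbp1 protein was hardly read in either line. Among the genes tested were Mcc, a paralog of Ushbp1 (0.13), the adhesion receptor gene Adgrv1 (-0.46, adjusted p = 0.088 by edgeR), the scaffold gene Whrn (0.06) and the cadherin gene Cdh23 (0.0050). Adgrv1 passed with no expression filter (0.011 by edgeR) and without either DMSO library of DHX35-dTAG cells (0.0039 and 0.0015 by edgeR).

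The list around Aim2 held the AIM2-like receptors, which are its neighbours on the chromosome, and inflammasome and DNA-sensing genes. Of 24 listed in the tables, 14 were at 0 in all 8 libraries, among them Casp1 and Casp4, the inflammatory caspases, and Il1b, a cytokine that caspase-1 processes. Of 11 other AIM2-like receptor genes, 9 were at 0, and the highest count of any was 1. Among the receptor genes found in the tables, only Aim2, with 104 to 362 counts, was thus read at more than 1 count in a library. Of the 30 genes on this list, 24 were in the tables. Of the 5 genes that could be tested, 0 were called, with a median of -0.11. The adaptor gene Pycard, which links AIM2 to caspase-1, had 16.4 ± 3.2 CPM in DHX35-dTAG cells and 15.0 ± 1.8 CPM in GPATCH1-dTAG cells (SD, n = 4). Sting1 (0.42, adjusted p = 0.21 by edgeR), Cgas (0.19) and the pore-forming gasdermin gene Gsdmd (-0.11) did not pass the test either. Sting1 was 0.47 without DHX35-dTAG replicate 2 in DMSO and 0.38 without replicate 1.

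The list around Ephx2 held the other epoxide hydrolases and enzymes that make or oxidise polyunsaturated fatty acids. Of 10 tested genes of 22, 0 were called, with a median of -0.08. Lta4h, leukotriene A4 hydrolase, had 63.0 ± 3.2 and 66.0 ± 2.5 CPM (SD, n = 4). The desaturase genes Fads1 and Fads2 had log2 differences of 0.04 and -0.10, and the cytochrome P450 gene Cyp4f13 had 0.16. Fads1 was 0.16 without DHX35-dTAG replicate 2 in DMSO and -0.05 without replicate 1. The list around Dnajc5g held its family and the Hsc70 machinery. Of 11 tested genes of 13, 0 were called, with a median of 0.07. Dnajc5, the widely expressed family member, had 111 ± 8 CPM in DHX35-dTAG cells and 116 ± 4 CPM in GPATCH1-dTAG cells (SD, n = 4). Dnajc5b had 0 to 2 counts. The chaperone genes Hspa8, which encodes Hsc70 (0.21), Hspa4 (-0.03) and Hsph1 (0.21) did not pass the test. Hspa8 passed with no expression filter (adjusted p = 0.018 by edgeR). Its value was 0.44 without DHX35-dTAG replicate 2 in DMSO, which left replicate 1, the library that differed from the rest, alone in its group. Without DHX35-dTAG replicate 1 in DMSO, the value of Hspa8 was 0.039. Hsph1 passed without either DMSO library of that line (0.014 and 0.0013 by edgeR).

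**Figure D4:**
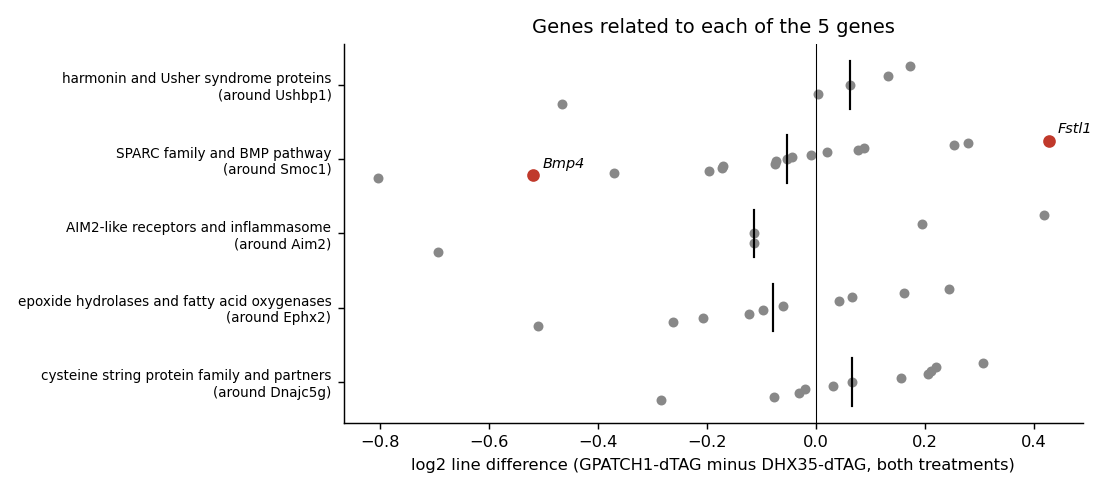
Log2 line difference averaged over treatments (GPATCH1-dTAG minus DHX35-dTAG) for the tested genes of the list around each of the 5 genes, with 1 point per gene and a bar at the list's median. Fstl1 (0.43) and Bmp4 (-0.52), in red, are the called genes.

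Markers of the cell types in which these genes are best known were read in the same way. Their summed levels in DHX35-dTAG and GPATCH1-dTAG cells were 61.2 to 76.8 and 77.4 to 85.0 CPM for endothelial cells, most of it Pecam1, with Cdh5 at 0 to 3 counts. For macrophages, they were 9.53 to 18.0 and 14.3 to 16.9 CPM, most of it Cd68, with Ptprc, Lyz2 and Adgre1 at 0. Hepatocyte markers summed to 5.39 to 8.16 and 6.19 to 6.67 CPM, with Alb and Serpina1a at 0. Male germ cell markers summed to 49.3 to 58.0 and 59.5 to 64.3 CPM, with Tnp1 and Prm2 at 0. Fibroblast markers, for feeder cells, summed to 11.4 to 13.5 and 10.7 to 15.0 CPM, with Postn and Lum at 0, and endoderm markers to 6.80 to 8.63 and 8.61 to 10.01 CPM. No marker of any list was called between the lines. The endothelial and germ cell sums were higher and the ES cell sum was lower in all 4 GPATCH1-dTAG libraries. Lines without overlap were also found for 11.6% of all genes tested. Each of these lists held genes that went either way in the averaged log2 line difference. Examples were Pou5f1 (-0.24) and Klf4 (0.23) for ES cells, Pecam1 (0.28) and Cldn5 (-0.93) for endothelial cells, and Stra8 (0.36) and Dazl (-0.16) for germ cells. The part of these sums in the results was not tested.

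The genes whose log2 CPM was most like that of each gene over the 8 libraries are given as a description, since all points share the same libraries and lines and the likeness mostly repeats the line difference. For Ushbp1, they were Gpatch1 (r = 1.00), Chd3 (r = 0.99) and Smoc1 (r = 0.99). For Smoc1, they were Ttll4, Ushbp1 and Gpatch1, and for Dnajc5g, they were Rpl39l, Chd3 and Map4k4. For Aim2, they were Calcoco2, Plagl1 and Gm44466, and for Ephx2, Dpm1, Tulp3 and Lrpap1. Each of these genes lay on another chromosome than the gene it resembled.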

How the data were processed

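RNA-seq libraries of 8 mouse embryonic stem cell samples were used, grouped by the labels. The authors removed ribosomal RNA, added human DLD-1 RNA, made stranded libraries, trimmed the reads (Trim Galore 0.6.6) and aligned them with STAR 2.7.5c to mm10 and hg19, per the labels. The authors deposited raw read counts per gene symbol, without normalization, and the counting program, annotation and strand setting are not given in the sources used here. The 5 genes and all lists were chosen with earlier results of these data known. Genes named besides them were the genes of a list or within 500 kb that were called, up to 4 genes of highest mean CPM per list, the nearest genes on each side and the 3 most alike over the 8 libraries (Pearson, log2 CPM, prior count 2, mean CPM of at least 1). Other names were added after their values were seen.

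Counts were scaled with TMM and tested with edgeR 4.0.16 in R 4.3.3 (quasi-likelihood, expression filter, 1 term per group, 8 libraries, Benjamini-Hochberg threshold 0.05). The standard error of a log2 difference is its size divided by the square root of F. DESeq2 1.42.0, its size factors, other filters, a replicate block, smaller fits and leaving out each library were the alternatives. Replicates of a group were not duplicates of each other, with a chi-square per gene of 5.49 to 139 against 1 for sampling noise. Intervals of count ratios are exact conditional binomial intervals at 95%. Genes were placed with GENCODE M21, in which 53180 symbols had a single entry, and promoter sequences are from RefSeq (GRCm38.p6), which held those of 3 of the 5 genes.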

Additional observations from a re-analysis of the deposited data

How the results depend on the processing

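For the line differences of Ushbp1, Smoc1, Aim2 and Ephx2, 103 of 110 values under an alternative moved by less than the spread between replicates, and the 7 others came from leaving out 1 library. Those of Dnajc5g were not among them. Leaving out each library in turn, the line difference in DMSO was from -4.38 to -3.54 for Ushbp1, -2.21 to -1.88 for Smoc1, 1.40 to 1.58 for Aim2 and 0.83 to 1.06 for Ephx2, and in dTAG-13 from -3.58 to -3.49, -2.33 to -2.13, 0.80 to 1.36 and 0.90 to 1.08. The effects of dTAG-13 on the 5 genes gave 173 such values, with Dnajc5g only in DHX35-dTAG cells. Of these, 12 were for Ushbp1 in GPATCH1-dTAG cells and 12 for the difference between its effects, on 2 to 5 counts, too few to show an effect. Of the 173, 167 kept their direction and stayed short of the threshold, and 6 reversed, all on leaving out 1 library. In DHX35-dTAG cells the effects were then from -0.14 to -0.10 for Ushbp1, -0.17 to 0.14 for Smoc1, 0.01 to 0.57 for Aim2, 0.01 to 0.18 for Ephx2 and 0.28 to 0.58 for Dnajc5g. In GPATCH1-dTAG cells they were from -0.11 to 0.73 for Ushbp1, -0.34 to -0.04 for Smoc1, -0.26 to 0.0095 for Aim2 and 0.02 to 0.25 for Ephx2, and the differences between the effects from 0.01 to 0.85, -0.35 to -0.02, -0.69 to -0.13 and -0.078 to 0.15. The lowest adjusted p of these effects under any alternative was 0.141 (edgeR). No fitted fold is given for the other Dnajc5g comparisons, in which an arm held 3 counts or fewer.

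Numbers of genes called over all genes depended on the settings, and the cause was not tested. In the order line difference in DMSO, in dTAG-13 and averaged, effect in DHX35-dTAG, effect in GPATCH1-dTAG and difference between effects, edgeR called 15, 15, 109, 0, 0 and 0. DESeq2 called 45, 45, 133, 1, 0 and 8. Without an expression filter there were 986, 158, 890, 345, 21 and 140, and with at least 10 counts in every library the first 2 were 4 and 4. With only the 4 libraries compared there were 2, 342, 1 and 127, leaving out the averaged difference and the difference between effects, which need all 8. Leaving out 1 library gave 4 to 5887, 4 to 660, 16 to 5149, 0 to 4949, 0 to 51 and 0 to 3592 genes, where the lone library of a group is assumed to vary like the others. The highest number for the line difference in dTAG-13 came from leaving out the first DMSO library of DHX35-dTAG cells. That for the effect in GPATCH1-dTAG came from leaving out either DMSO library of DHX35-dTAG cells, and the others from leaving out the second. The replicate block called 2 genes for the difference between effects and 16, 19 and 132 between the lines. Replicate numbers were not taken to pair the samples, since the labels name nothing that a number shares and the correlations of their deviations, from 0.037 to 0.23, were not all over 0.1. Among named neighbours and list genes, those newly called with all libraries were Nr2f6 (adjusted p = 0.028 by DESeq2, 0.043 by edgeR with the block, 1.9e-07 by edgeR without a filter) and, by edgeR without a filter, Slc30a3 (0.0068), Adgrv1 (0.011) and Hspa8 (0.018). On leaving out a DMSO library of DHX35-dTAG cells, these 4 and Hsph1, Babam1, Smad7, Sting1 and Fads1 were newly called. For Hspa8, Babam1, Smad7, Sting1 and Fads1, this held only without replicate 2. That fit left replicate 1, the library that differed from the rest, alone in its group. Bmp4 lost its call under the filter of at least 10 counts (0.0566 by edgeR). On leaving out 1 library, the averaged line differences of Babam1 (-0.21 to 0.10), Whrn (-0.023 to 0.15), Cdh23 (-0.072 to 0.092), Pycard (-0.21 to 0.0083), Gsdmd (-0.29 to 0.032), Fads1 (-0.050 to 0.16) and Hspa4 (-0.088 to 0.036) changed sign. Depth limits Ushbp1 and Dnajc5g, which lay at or near 3 counts in GPATCH1-dTAG cells.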
